A study of Mus musculus with 4 samples.

Results

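The 9 genes described here encode calcium/calmodulin-dependent protein kinases (CaM kinases) and the calcium-dependent phosphatase calcineurin. They are Camk2a, Camk2b, Camk2d and Camk2g, the subunits of CaM kinase II; Camk4, CaM kinase IV; Camkk2, a kinase that activates CaM kinase IV; and Ppp3ca, Ppp3cb and Ppp3r1 of calcineurin. They were taken by name from the 21938 protein-coding genes of the GENCODE mouse annotation, release M21, but as a group they were chosen by their H3K4me3 peaks and domain breadths in these same data, and breadths and counts are therefore given as a description, without a test. Peaks within 1 kb of any annotated transcription start site of a gene were assigned to it. Peaks no more than 1 kb apart were joined into a domain, whose length in bp is its breadth.

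CaM kinases and calcineurin both bind calmodulin once it is loaded with calcium, and they act in opposite directions, by adding phosphate to proteins and by removing it. CaM kinase II is an abundant enzyme of excitatory synapses, where its activity is needed for long-term potentiation in the hippocampus, and calcineurin is known for its part in long-term depression and for dephosphorylating NFAT transcription factors. Histone H3 trimethylated at lysine 4 (H3K4me3) marks active and poised promoters, and in many cell types genes linked to that cell's identity carry it over unusually long stretches.

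H3K4me3 was measured by chromatin immunoprecipitation and sequencing in the hippocampus of adult male B6CASTF1/J mice aged 2 months, the hybrid offspring of a laboratory and a wild-derived strain. The 4 libraries comprised 2 technical replicates from each of 2 pools of frozen tissue, pool C and pool D. Each pool combined 7 tissue samples, labelled as a layer of hippocampus without naming the layer. No treatment, genotype or second tissue is given, so the comparisons are between the pools and between these genes and all marked genes.

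The replicated peak list held 27063 peaks, the pool C list 34193, the pool D list 24690 and the list called on both pools together 31301. Both technical replicates of a pool fed 1 list, so n is 2 pools throughout and no library could be compared with its partner. Sequencing depth is unknown from the files. As a check on the tissue, all 5 hippocampal field genes examined (Prox1, Zbtb20, Emx2, Lhx2 and Neurod6) carried a promoter peak, and none of 4 liver genes did. Promoters of genes that mark astrocytes, oligodendrocytes and endothelium were also marked, 4 of 4 in each case, and those of 1 of 4 microglial genes. In bulk tissue, fewer cells carrying the mark and less mark per cell cannot be told apart.

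All 9 genes carried the mark at a promoter in each of the 4 lists, and 4 of them carried it over 5 kb or more. The share of all protein-coding genes with a promoter peak was 65.5% in the replicated list, 66.9% in pool C, 64.3% in pool D and 66.3% in the list on both pools. Domains of 5 kb or more in the replicated list belonged to Ppp3ca (13823 bp), Camk2a (13527 bp), Camk2b (7973 bp) and Ppp3r1 (5952 bp). Among all 14369 marked genes, 6.96% had a domain that broad. There were 5 such genes in pool C, where Camk2g was added and the share of all marked genes was 9.46%, and 3 in pool D, where Ppp3r1 was missing and that share was 4.76%. The list on both pools had the same number as the replicated list, 4, against 7.57% of all marked genes. Camk2g lay just below that length at 4795 bp, followed by Camk2d at 3175 bp, Camk4 at 3053 bp, Ppp3cb at 2363 bp and Camkk2 at 2188 bp. The median of the 9 was 4795 bp, against 2234 bp over all marked genes, whose middle range (quartiles) ran from 1626 to 3137 bp. Camkk2 alone lay below the all-gene median, and 6 of the 9 lay above the upper quartile. Camkk2 was close to that median in every list. It was above it in pool C (2403 against 2400 bp), in pool D (2064 against 2034 bp) and, with no gap closed, in the replicated list (2188 against 2082 bp). The subunits of each enzyme differed among themselves. In CaM kinase II the order was alpha, beta, gamma and delta with gaps of 1 kb closed. With none closed alpha (3474 bp) was below gamma and beta in the replicated list. In pool C with none closed alpha was the broadest (6332 bp), above gamma (5024 bp) and beta (4574 bp). In calcineurin the order was Ppp3ca, Ppp3r1 and Ppp3cb with and without gap closing.

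**Figure D1:**
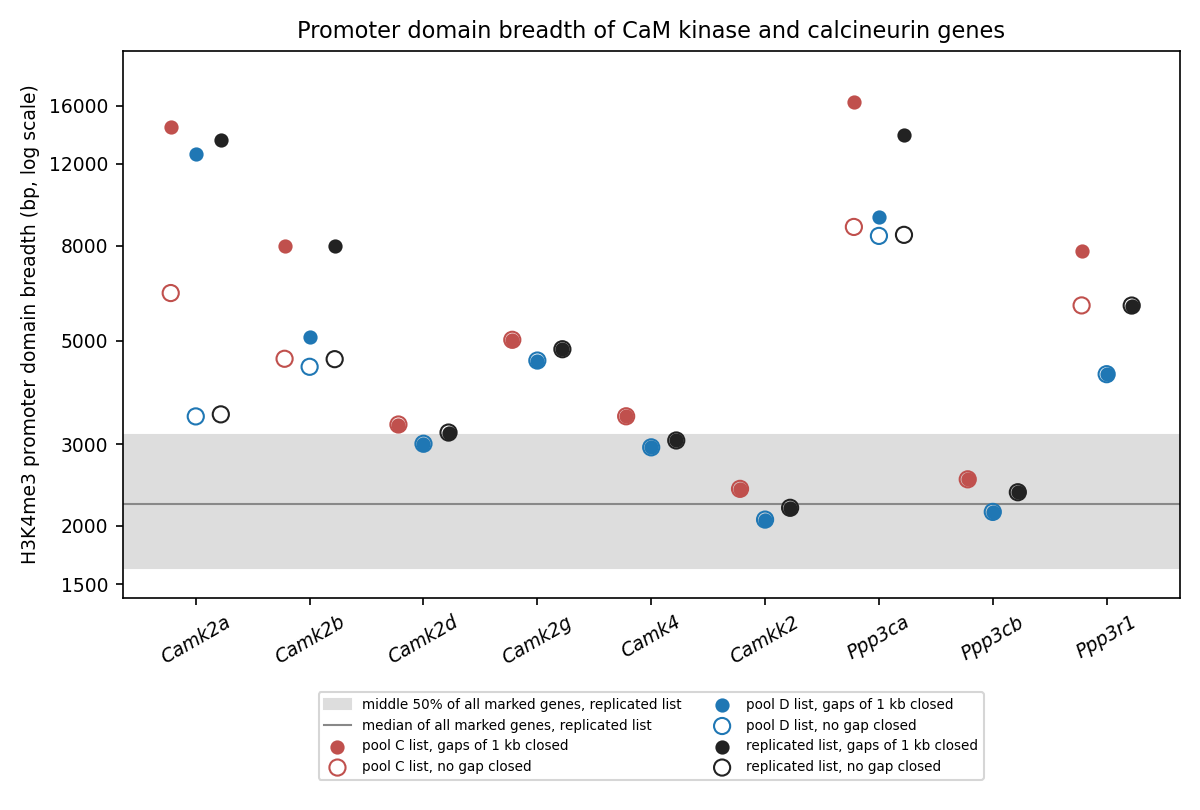
Breadth of the promoter domain of each gene (bp, log scale) in the pool C, pool D and replicated lists; filled points join peaks up to 1 kb apart, open points are the broadest single peak at a promoter, and the grey line and band are the median and quartiles of all marked genes in the replicated list. Ppp3ca, Camk2a and Camk2b stand well above the band and differ most between filled and open points, while Camkk2 and Ppp3cb lie within it.

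Of the 9 genes, 5 had an entry in the RefSeq promoter table of build GRCm38.p6, which gives 250 bases before and 50 after a gene's start. Camk2a, Camk2g, Camk4 and Ppp3ca were the others. Below are the promoters of 2 genes with broad domains, Camk2b and Ppp3r1, and of the 2 genes with the narrowest domains, Camkk2 and Ppp3cb. They show how differently these genes are supplied with CpG, the dinucleotide whose density at a promoter is known to go with H3K4me3. Each is written 5′ to 3′ on the gene's own strand, with every CpG in capitals.
Camk2b: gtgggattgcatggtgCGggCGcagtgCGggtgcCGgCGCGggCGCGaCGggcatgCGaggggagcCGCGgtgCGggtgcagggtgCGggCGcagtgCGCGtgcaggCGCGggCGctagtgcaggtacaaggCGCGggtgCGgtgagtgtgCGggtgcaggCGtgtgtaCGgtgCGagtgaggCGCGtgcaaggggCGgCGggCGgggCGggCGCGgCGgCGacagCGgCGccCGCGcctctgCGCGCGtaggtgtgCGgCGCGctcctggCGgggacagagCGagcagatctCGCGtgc
Ppp3r1: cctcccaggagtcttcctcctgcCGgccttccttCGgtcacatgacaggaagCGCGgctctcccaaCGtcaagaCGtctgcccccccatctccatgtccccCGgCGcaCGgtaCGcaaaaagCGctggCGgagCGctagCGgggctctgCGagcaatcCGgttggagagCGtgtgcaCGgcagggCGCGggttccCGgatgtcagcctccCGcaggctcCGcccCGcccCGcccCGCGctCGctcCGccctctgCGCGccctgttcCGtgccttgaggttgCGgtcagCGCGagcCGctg
Camkk2: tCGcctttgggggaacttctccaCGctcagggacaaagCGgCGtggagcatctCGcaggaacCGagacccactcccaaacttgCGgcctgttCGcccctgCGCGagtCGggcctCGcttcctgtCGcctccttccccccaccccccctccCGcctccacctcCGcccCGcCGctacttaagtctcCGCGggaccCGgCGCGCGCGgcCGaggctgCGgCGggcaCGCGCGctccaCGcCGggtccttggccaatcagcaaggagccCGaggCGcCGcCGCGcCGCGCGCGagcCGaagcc
Ppp3cb: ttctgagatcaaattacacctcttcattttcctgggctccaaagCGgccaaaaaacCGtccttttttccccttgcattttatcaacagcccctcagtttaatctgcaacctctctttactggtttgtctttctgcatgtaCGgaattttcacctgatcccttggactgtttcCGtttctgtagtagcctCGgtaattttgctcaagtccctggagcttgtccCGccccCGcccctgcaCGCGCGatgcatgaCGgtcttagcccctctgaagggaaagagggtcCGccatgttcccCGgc
The Camk2b sequence lies at chr11:6065699-6065998 on the minus strand and held 51 CpG in its 300 bases. Ppp3r1, at chr11:17159048-17159347 on the plus strand, held 36. Camkk2, at chr5:122779361-122779660 on the minus strand, held 42, and Ppp3cb, at chr14:20546524-20546823 on the minus strand, held 13. The Camk2d entry held 31. Over 16522 promoters of the table the median was 14, with quartiles of 4 and 25. In these 300 bases Camkk2, with a narrow domain, thus held more CpG than Ppp3r1, with a broad one, and Ppp3cb held fewer. Over the whole domain the density was 6.40 CpG per 100 bp in Camkk2, 4.99 in Ppp3cb, 3.70 in Camk2b and 3.24 in Ppp3r1. These domains differ in length and density is taken over all of it, so its order cannot be set against the counts in 300 bases. All 300 bases lay within a replicated peak in Ppp3r1, Camkk2, Ppp3cb and Camk2d, but only 201 (67%) did in Camk2b.

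In the same 5 windows, 4 short motifs were searched on both strands, and matches that overlap each other were all counted. The cAMP response element TGACGTCA, bound by the CaM kinase IV target CREB, was found in none of the 5 and in 2.43% of the table's promoters. The Sp1 box GGGCGG was found in all 5, with 4 matches in Ppp3r1, 3 in Camk2b and in Camk2d, 2 in Ppp3cb and 1 in Camkk2, and in 48.0% of promoters. CCAAT occurred in Camkk2 alone, and in 38.7% of promoters. TATAAA occurred in none of the 5, and in 12.9% of promoters. These are matches of letters in a window and say nothing of binding.

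Around the first coding start (500 bp on either side) the counts spread further. That start is the most upstream start of a protein-coding transcript near the domain, and distances are counted from it in the direction of transcription. Camk2b had 132 CpG there, above 98.3% of marked genes. Ppp3ca had 115, Camkk2 112, Camk2d 111, Camk2g and Ppp3r1 94 each and Ppp3cb 72. Camk2a had 23, which was above only 7.48% of marked genes, and Camk4 had 14. The median of the 9 was 94, against 62 over 14049 marked genes with a coding start (quartiles 44 and 82). In Camk4 the count depended on the start used. The start of Camk4-201, 767 bp downstream and the nearest to the strongest point of the mark, had 82 CpG. In Camk2a it did not, since the start nearest the strongest point, at 107 bp, had 22. Camk2a therefore combined the 20th broadest domain of the list with a CpG-poor start. Of 1139 marked genes with no more CpG than Camk2a, 9.04% had a domain of 5 kb or more, their median was 1777 bp, and Camk2a was number 4 among them in breadth.

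**Figure D2:**
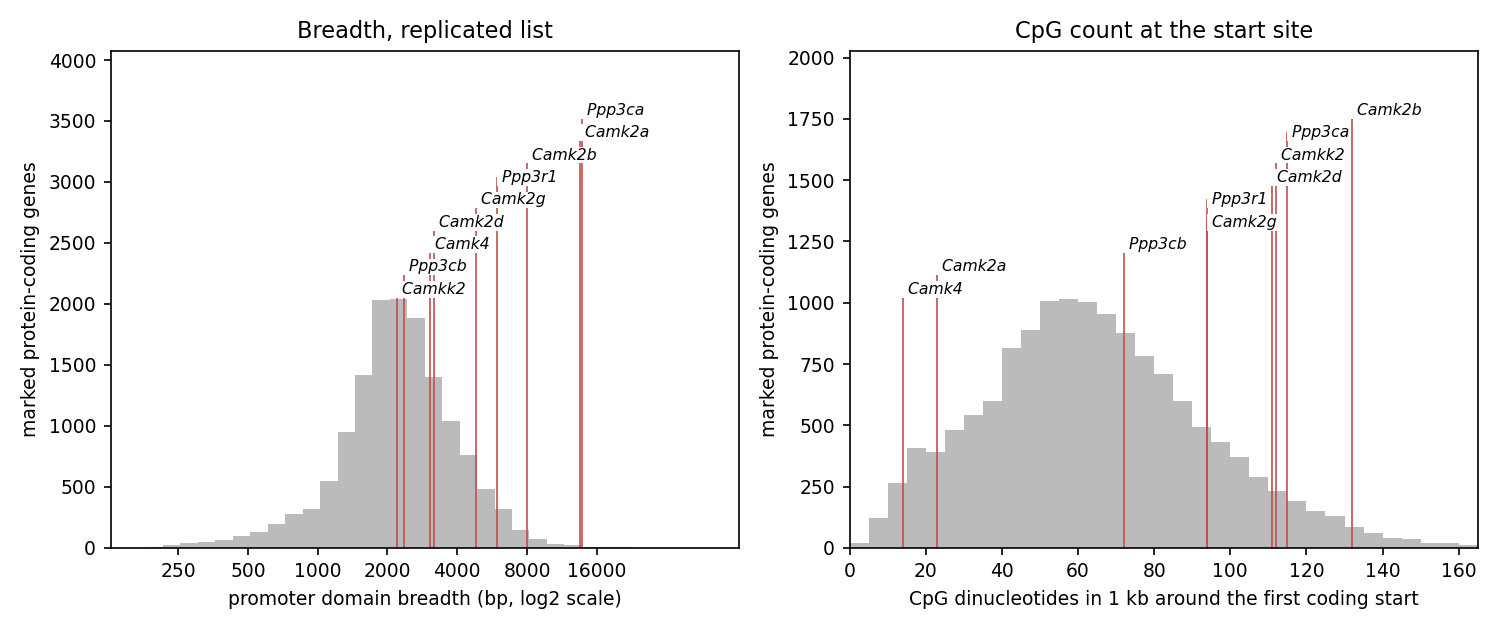
Left, number of marked protein-coding genes by promoter domain breadth in the replicated list (bp, log2 scale); right, number of marked genes by CpG count in 1 kb around the first coding start, with red lines at the 9 genes in both panels. Camk2a lies in the far right tail on the left (13527 bp) and in the left tail on the right (23 CpG), and Camk2b is high in both (7973 bp and 132 CpG).

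Camk2a encodes the alpha subunit, which forms most of CaM kinase II in forebrain excitatory neurons. Its domain measured 14368 bp in pool C and 12598 bp in pool D (mean 13483 ± 1252, SD, n = 2 pools), and in the replicated list it spanned chr18:60924585-60938111. Both pools had a domain of over 5 kb, and their ratio of 1.14 held for gaps of 1 kb only. It was 1.84 with no gap closed, 1.85 with 500 bp, 1.87 with 3 kb and 1.95 where a −log10 q of 5 or more was required. In pool D the domain spans a gap of 780 bp between weak peaks, which a limit of 500 bp does not close. It lay almost wholly in the gene body. The domain began 1033 bp before the first coding start and ended 12493 bp after it, so that 92.4% of it was downstream. The domain was built from 4 peaks of falling signal, the enrichment value that the authors gave each peak. The first, across the start, had a signal of 23.1, the second, from 1687 to 5160 bp, 16.9, the third, from 5335 to 6255 bp, 7.15, and the last, from 6338 to 12493 bp, 3.86. That last peak stood at percentile 18.1 of signal in the replicated list. The gaps between them were 193, 174 and 82 bp. With no gap closed, the broadest peak within 1 kb of a Camk2a start measured 6332 bp in pool C, 3439 bp in pool D and 3474 bp in the replicated list. Only the pool C peak lay across the first coding start. The pool D and replicated peaks began at 1720 and 1687 bp and held no annotated start. In those lists the peak across the first coding start measured 2355 and 2527 bp. The ratio of 1.84 thus sets unlike peaks against each other. The greater length of the pool C peak came with a stretch from 1493 to 1687 bp that was a gap in the replicated list and within a peak in pool C. Beyond the domain, after a gap of 2181 bp, 5 weak peaks followed as far as 22330 bp, and closing gaps of 3 kb gave 23364 bp. A pair of coding starts at 37936 and 37982 bp, of the short transcripts Camk2a-204 and Camk2a-202, had no peak within 1 kb in any of the 4 lists.

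**Figure D3:**
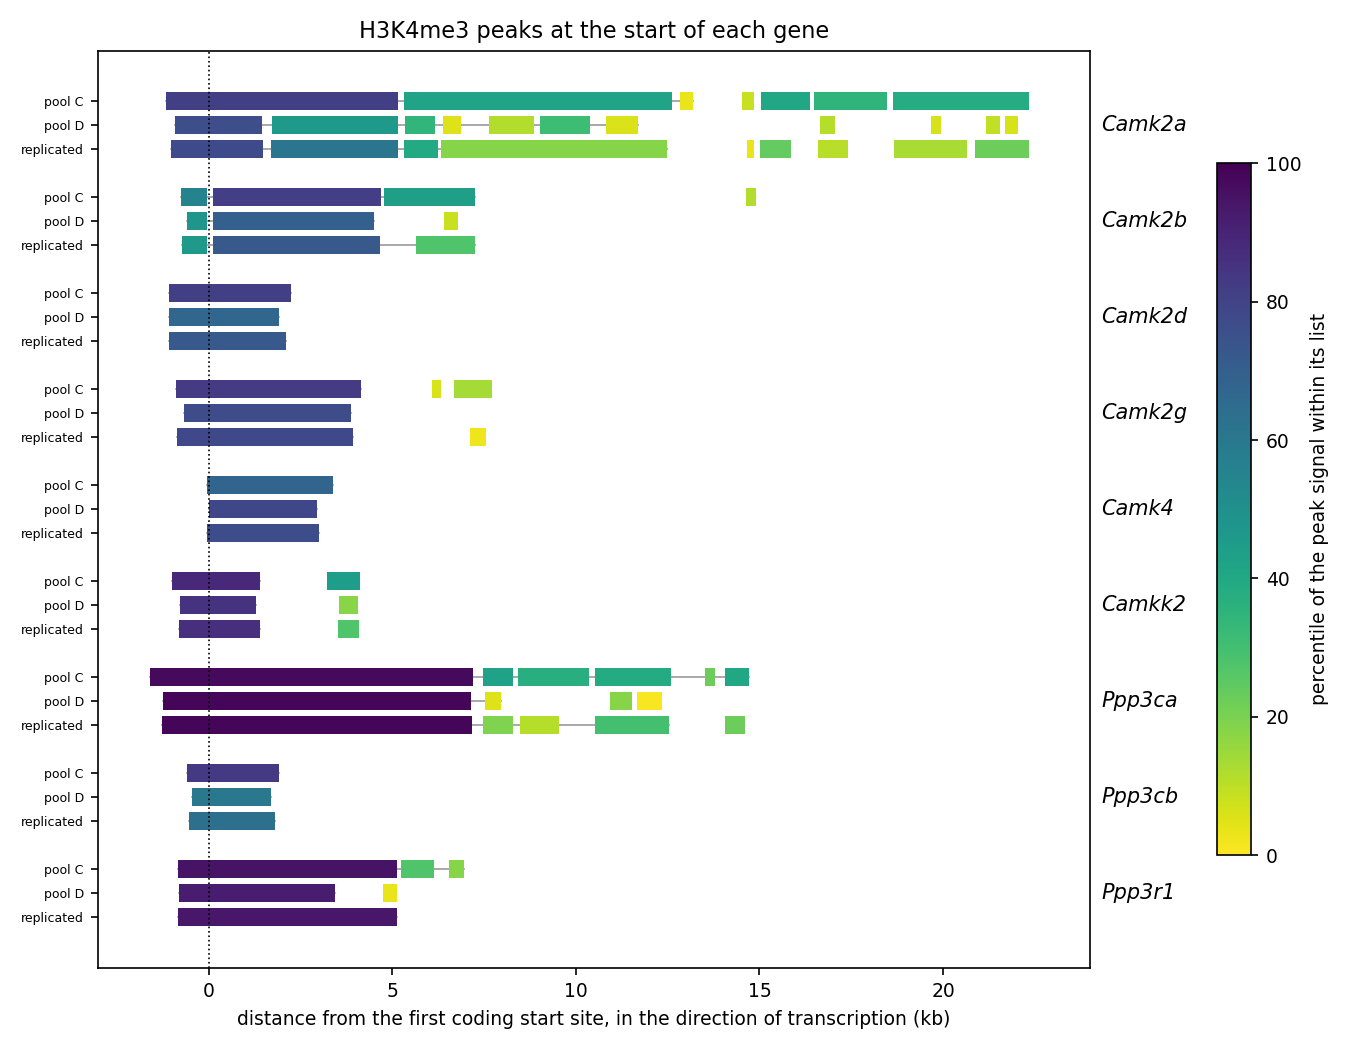
Peaks of each gene in the pool C, pool D and replicated lists, by distance from the first coding start in kb; colour is the percentile of a peak's signal within its own list, and thin grey lines are gaps closed in a domain. Camk2a runs on in weak peaks to 22330 bp, Camk2b has a gap at the start itself, and the peak of Camk4 begins at its first coding start with almost nothing before it.

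Camk2b encodes the beta subunit, which binds actin and helps place the enzyme in dendritic spines. Its domain measured 7995 bp in pool C and 5085 bp in pool D (mean 6540 ± 2058, SD, n = 2 pools), at chr11:6058503-6066475 in the replicated list. The difference between the pools came with the last, weak peak. In pool C it started 80 bp after the second peak, in the replicated list 962 bp after it and just inside the 1 kb limit, and in pool D, as a peak of 402 bp, 1889 bp after it and outside. With no gap closed the pools were close, at 4574 bp in pool C and 4396 bp in pool D. The first coding start of Camk2b itself lay in a gap. The first peak ended at position -50 and the second began at 114, leaving 163 bp without a peak, and the gap was 160 bp in pool C and 168 bp in pool D. It held the coding starts at 0 and 6 bp, while the 6 coding starts from 136 to 210 bp were inside the second peak. The last 99 bases of the Camk2b sequence above lie in this gap. Over all marked genes with a coding start, 2.08% had their first coding start in a gap between peaks of a domain. Further along, both pools had weak peaks near 58 kb, and pool C alone a second promoter domain of 463 bp at 65121 bp.

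Camk2d and Camk2g encode the delta and gamma subunits, the forms of CaM kinase II found most widely outside the brain. Camk2d measured 3304 bp in pool C and 3004 bp in pool D (mean 3154 ± 212, SD, n = 2 pools), as 1 peak in each list, with 66.3% of the replicated domain downstream of the first coding start. It also had weak peaks inside the gene near 96 and 126 kb, in both pools. Its coding starts at 205989 and 208911 bp carried no peak. Camk2g measured 5024 bp in pool C and 4534 bp in pool D (mean 4779 ± 346, SD, n = 2 pools), again as 1 peak, so pool C was just above 5 kb and pool D and the replicated list (4795 bp) just below. The start of Gm30108, an annotated long noncoding RNA on the other strand, lay 151 bp before that of Camk2g, inside the same peak. Of the 9 coding starts of Camk2g, the 5 from 28674 to 54721 bp had no peak within 1 kb. A strong peak at 59 kb belonged to the promoter of the neighbour Ndst2.

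Camk4 encodes a CaM kinase that acts largely in the nucleus and phosphorylates CREB. Its domain was 1 peak of 3441 bp in pool C and 2951 bp in pool D (mean 3196 ± 346, SD, n = 2 pools), at chr18:32938350-32941402 in the replicated list. Counted from the first coding start it was the most one-sided of the 9, with 98.6% of its length downstream, since it began only 41 bp before that start. Its strongest point lay 1048 bp after that start, and the second coding start at 767 bp and the start of an antisense RNA, 2310026I22Rik, at 838 bp were inside the peak. Counted from the start at 767 bp, less of the domain would lie downstream, and that share was not computed. The most upstream annotated starts of Camk4, at positions -3460 and -3419 and both of transcripts annotated as subject to nonsense-mediated decay, had no peak within 1 kb. Counting the gene's 5′ end alone would thus have left Camk4 unmarked, and 8 of the 9 genes marked. By that count 62.0% of all protein-coding genes were marked.

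Camkk2 encodes a kinase that phosphorylates and activates CaM kinases I and IV and AMP-activated protein kinase. Its domain was the narrowest of the 9, at 2403 bp in pool C and 2064 bp in pool D (mean 2234 ± 240, SD, n = 2 pools). It was nevertheless tall, with a signal of 26.4 at percentile 86.3 of the replicated list, above Camk2a and Camk2b. A weak peak of 580 bp inside the gene stood 2132 bp beyond the domain, so that closing gaps of 3 kb gave 4900 bp. Both pools had that peak, at 905 bp in pool C and 508 bp in pool D. The start of Gm43684, an annotated transcript of unconfirmed type on the other strand, lay 143 bp before the first coding start.

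Ppp3ca encodes the catalytic alpha subunit of calcineurin, the main catalytic form in brain. Its domain measured 16319 bp in pool C and 9230 bp in pool D, and their mean of 12775 bp had an SD of 5013 bp (n = 2 pools), the widest spread of the 9. It was the broadest domain of the 9 in the replicated list, at chr3:136668849-136682671, and number 16 from the broadest among all marked genes. Its core hardly differed between the pools. The peak across the start measured 8782 bp in pool C and 8401 bp in pool D, a ratio of 1.05, and had the highest signal of the 9 genes (33.1, percentile 98.7). What differed was the row of weak peaks after it. Pool C joined 5 of them out to 14729 bp, across gaps of at most 919 bp, while pool D joined 1 and then met a gap of 2953 bp. In the replicated list the last gap joined was 979 bp and the first one not joined 1512 bp. A noncoding transcript, Ppp3ca-204, starts at 164569 bp, and a peak of 536 bp near it was present in pool C but not in pool D or the replicated list.

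Ppp3cb encodes the catalytic beta subunit, and Ppp3r1 the regulatory subunit, calcineurin B, which binds calcium itself and which either catalytic subunit needs. Ppp3cb had 1 peak of 2519 bp in pool C and 2144 bp in pool D (mean 2332 ± 265, SD, n = 2 pools). That peak also held all 4 starts of the antisense RNA 1810062O18Rik, from 280 to 494 bp. Its signal in the replicated list, 17.9, was the lowest of the 9, but in pool C Camk4 was the lowest at 20.7 and Ppp3cb had 29.7. The values of the catalytic subunits did not overlap. The lower Ppp3ca value, 9230 bp in pool D, exceeded the higher Ppp3cb value, 2519 bp in pool C. Ppp3r1 measured 7779 bp in pool C and 4238 bp in pool D (mean 6009 ± 2504, SD, n = 2 pools). It was the only one of the 4 broad genes to fall short of 5 kb in pool D. The peak itself ended at 5126 bp in pool C and at 3435 bp in pool D, where a separate weak peak followed from 4750 to 5130 bp after a gap of 1314 bp.

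In the replicated list the reach of the domain depended on the gap closed in Camk2a, Camk2b, Ppp3ca and Camkk2. With no gap closed, 2 genes kept a breadth of 5 kb or more in the replicated list, Ppp3ca (8445 bp) and Ppp3r1 (5952 bp), where the share of all marked genes was 4.09%. The median of the 9 was then 3474 bp, against 2082 bp over all marked genes. Without gap closing Camk2a was at percentile 85.8 of breadth and Camk2b at percentile 94.2, against 99.9 and 98.9 with 1 kb closed. In that list Camk2d, Camk2g, Camk4, Ppp3cb and Ppp3r1 had the same breadth at every gap tried up to 3 kb, and Camkk2 changed only at 3 kb. The single-pool lists differed for Ppp3r1, for which pool C gave 5956 bp without gap closing and 7779 bp with 1 kb closed, while pool D gave 4238 bp both ways. For Camk2g the ratio of pool C over pool D was 1.11 up to 1 kb and 1.90 with 3 kb closed.

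**Figure D4:**
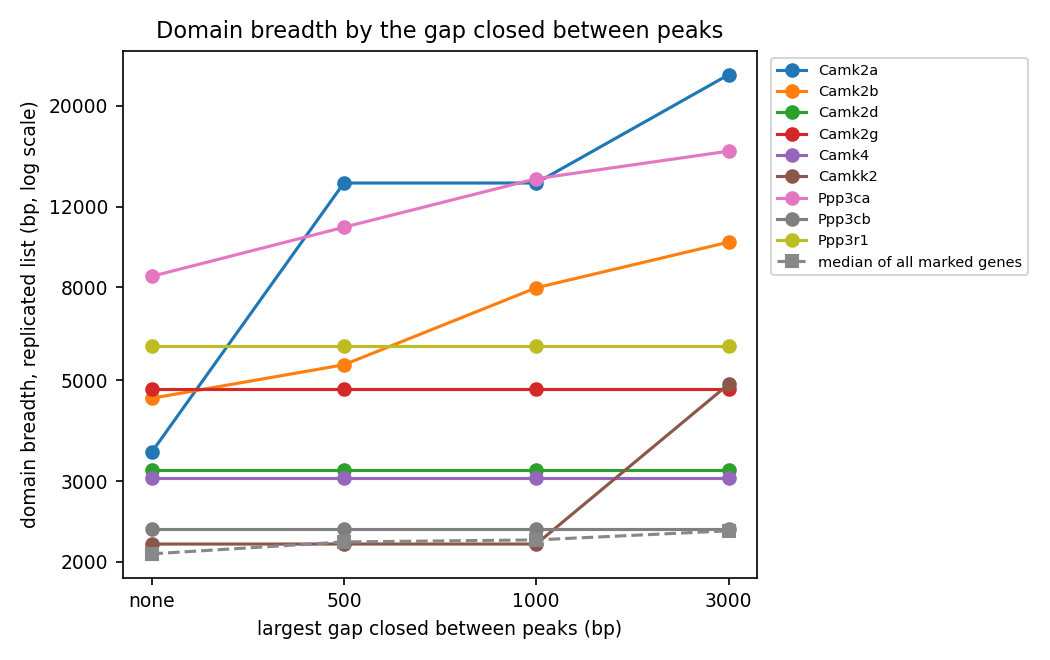
Breadth in the replicated list (bp, log scale) against the largest gap closed between peaks (bp, categories not to scale); the dashed line is the median of all marked genes. Camk2a goes up at 500 bp and again at 3 kb, Ppp3ca and Camk2b at each step, Camkk2 only at 3 kb, and the other genes are flat.

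All 9 genes had a broader domain in pool C than in pool D, as did 96.8% of the 14098 genes marked in both pools. The ratio of pool C over pool D ran from 1.10 in Camk2d to 1.84 in Ppp3r1, with a median of 1.17, against 1.18 over all genes (quartiles 1.09 and 1.32). It was 1.5 or more in 3 genes, Ppp3r1, Ppp3ca (1.77) and Camk2b (1.57), and 12.9% of all genes had such a ratio. With gaps of 500 bp closed 4 genes did, these 3 and Camk2a (1.85). The same 4 did with 1 kb closed where a −log10 q of 5 or more was required. With 3 kb closed 2 genes did, Camk2g (1.90) and Camk2a (1.87), while Ppp3r1, Ppp3ca and Camk2b had 1.31, 1.20 and 1.05. The share of all genes was not computed at 500 bp, at 3 kb or at that q limit, so those counts describe these genes only. With no gap closed the ratio was 1.5 or more in Camk2a alone (1.84), against 14.2% of all genes. The extra length of pool C lay mainly downstream. The downstream edge was farther out in pool C by 111 to 6754 bp, and the upstream edge by -22 to 335 bp, and the downstream difference was the larger in 8 of the 9, Camkk2 being the exception. Among genes alone in their domain, the downstream edge moved more in 70.5%. Markers of some other cells differed between the pools. Of 4 microglial genes (C1qa, Aif1, Cx3cr1 and Tmem119), all 4 were marked in pool C and none in pool D, and of 4 oligodendrocyte genes, 4 in pool C and 3 in pool D, while all 4 astrocyte and all 4 endothelial genes were marked in both. The pool C list also held more peaks. The part of either in the wider domains was not tested.

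The mark lay downstream of the first coding start in all 9 genes more than upstream. The downstream share ran from 63.6% in Camkk2 to 98.6% in Camk4, and it was 92.4% in Camk2a, 90.9% in Camk2b, 90.8% in Ppp3ca and 86.1% in Ppp3r1. In Camk4 the share depended on the start used, and would be lower from its coding start at 767 bp. The median over marked genes alone in their domain was 73.1%, and over those of them with 5 kb or more it was 85.0%. The upstream edge of the 9 replicated domains stayed between 41 and 1275 bp of the start, whereas the downstream edge ranged from 1392 to 12547 bp. Differences in breadth among these genes were therefore mainly differences in how far the mark ran into the gene.

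Coding starts farther into the gene often had no peak near them. The first coding start was itself chosen near a domain, so the marking of it and of starts beside it follows from that choice. Shares over the starts of all protein-coding genes were not computed, so the counts describe these genes only. The 9 genes had 94 annotated start sites, of which 57 lay within 1 kb of a replicated peak. Of the 50 starts of coding transcripts, 39 did, and the other 11 belonged to Camk2g (5), Camk2a, Camk2d and Camkk2 (2 each). All coding starts of Camk2b, Camk4, Ppp3ca, Ppp3cb and Ppp3r1 lay near a peak.

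Other genes of the same signalling route were nearly all marked, with a median breadth between that of the 9 and that of all marked genes. Of 53 such genes in 5 lists, 52 carried a promoter peak, 13 had a domain of 5 kb or more, and the median was 3246 bp. The lists were chosen with earlier results of these data known. Of all protein-coding genes, 65.5% carried a promoter peak. Of all marked genes, 6.96% had a domain of 5 kb or more, and 4.09% had one with no gap closed. Calmodulin and its binding proteins were the broadest list, with 4 of 6 at 5 kb or more and a median of 6653 bp. Without gap closing, 2 of the 6 reached 5 kb. The leading genes were Calm2, a calmodulin gene, at 9600 bp, and Nrgn, the postsynaptic calmodulin store neurogranin, at 8937 bp (4830 bp with no gap closed). Targets of CaM kinases had 4 of 13 at 5 kb or more and a median of 3541 bp, led by Grin2b, an NMDA receptor subunit that docks CaM kinase II (15960 bp), and Dlg4, the scaffold PSD-95 (12349 bp, and 4716 bp with no gap closed). Of the 13, 2 reached 5 kb without gap closing. Among 12 other CaM kinases and regulators of CaM kinase II, 2 reached 5 kb, Camkv (5613 bp), a kinase-like protein without known activity, and Camkk1 (5053 bp), the partner of Camkk2, with a median of 3322 bp. Of these 12, 3 reached 5 kb in pool C and 1 in pool D, where 9.46% and 4.76% of all marked genes did. Calcineurin targets had 3 of 12 and a median of 3318 bp, led by the transcription factor Mef2c (7392 bp) and Dnm1, the endocytic GTPase dynamin 1 (6627 bp). Other calcineurin subunits and regulators had none of 10, and the median of the 9 marked was 2256 bp, close to that of all genes. Their broadest were Fkbp1a, the binding protein of the calcineurin inhibitor tacrolimus (4574 bp), and Rcan2, a calcineurin regulator (3049 bp). In pool C Fkbp1a reached 5020 bp, the only gene of this list at 5 kb or more, and in pool D none did. Ppp3r2, the regulatory subunit known from testis, was the only one of the 53 without a peak.

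**Figure D5:**
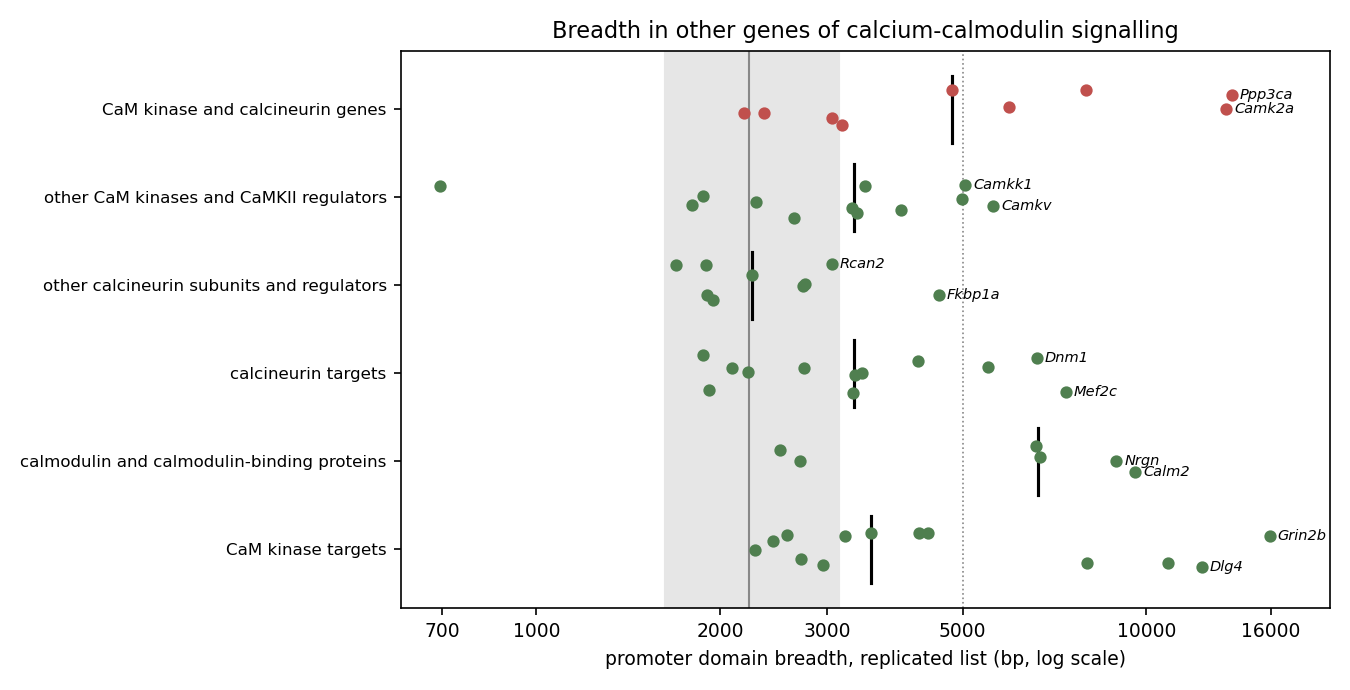
Promoter domain breadth in the replicated list (bp, log scale) for the 9 genes (red) and for 5 lists of other genes of calcium and calmodulin signalling (green); black bars are list medians, the grey line and band the median and quartiles of all marked genes, and the dotted line 5 kb. The calmodulin list has the rightmost median (6653 bp), and the other calcineurin subunits and regulators lie around the all-gene median.

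For the broad genes, the nearest profiles were sought among 11186 genes alone in their domain, over 4 values per gene, the log2 breadths in the replicated list with and without gap closing, in pool C and in pool D. The 4 values share peaks and are not independent. Nearest to Camk2a were Prox1 (distance 0.36), Dlg4 (0.51) and Nr2f2 (0.74). Those nearest to Ppp3ca were Zic2 (0.37), Emx2 (0.38) and Nr2f1 (0.39). Camk2b had closer matches in Sirpa (0.12), Ywhah (0.16) and Arid1a (0.17), and Ppp3r1 had Slc7a5 (0.27), Foxp1 (0.28) and Nr1d1 (0.29). Prox1, for example, measured 16384 bp in pool C and 12370 bp in pool D, and 4079 bp with no gap closed in the replicated list, against 3474 bp in Camk2a.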

How the data were processed

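The deposited files are 4 peak lists in mm10 (GRCm38) coordinates, called by the authors on pool C, on pool D and on both pools together as pseudoreplicated peaks, and as replicated peaks, per the labels. The lists were tied to pools by the alignments named in the per-library notes, which also name a control alignment. Fragments were 200 to 600 in size, per the labels. The name and settings of the peak caller were not given in the sources used here. Peaks carry a signal value, deposited by the authors as enrichment on their caller's scale and used only to rank peaks within a list, and deposited −log10 p and −log10 q values. Weak peaks are included: in the replicated list 357 of 27063 had q above 0.05. Depth is unknown, so no interval is given.

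The replicated list was the main one. Promoters were windows of 1 kb on either side of any GENCODE M21 start, a peak counted with at least 1 bp in a window, peaks up to 1 kb apart were joined, and the broadest domain was kept. Positions in the text count the first coding start as 0. Joining was tested on simulated peaks. Python 3.11.15, numpy 2.4.6, pandas 2.3.3 and pysam 0.24.0 were used. The members and gene lists were chosen with earlier results of these data known. The text names all 9 members, the 2 broadest and the first 2 unmarked genes of each list, the 3 nearest genes to each broad member, and genes starting in a member's domain. Ndst2 was named after its peak was seen. Promoter sequences are from RefSeq.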

Additional observations from a re-analysis of the deposited data

How the results depend on the processing

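Alternatives were other gaps, a −log10 q of at least 5, each pool's list alone, the list on both pools, other promoter windows, a larger overlap, coding transcripts only and the gene's 5′ end only. In every setting the median of the 9 stayed above that of all marked genes, and each pool C over pool D ratio computed stayed above 1. Some orders did reverse. With no gap closed in the replicated list, Camk2a (3474 bp) fell below Camk2b (4565 bp) and Camk2g (4795 bp), but in pool C it did not. Camkk2 (2188 bp) lay above the all-gene median (2082 bp) in the replicated list with no gap closed, and below it with 1 kb closed. With no gap closed in the replicated list, 2 genes had 5 kb or more, against 4.09% of all marked genes, and the median of the 9 was 3474 bp. In pool C 4 genes did, with a median of 4574 bp, and in pool D 1 gene did, with a median of 3439 bp. The share of all marked genes was not computed for the pools with no gap closed. A pool ratio of 1.5 or more was then found in 1 gene, against 14.2% of all genes. The pool lists alone gave medians from 4238 bp (pool D) to 5024 bp (pool C) and from 3 to 5 genes of 5 kb or more. The 5′ end alone gave a median of 5373.5 bp over 8 genes, since Camk4 has no peak there. Of all protein-coding genes 62.0% had a peak at the 5′ end. Single breadths moved by over 1.5 times in Camk2a (3474 bp with no gap closed, 23364 bp with 3 kb), Camk2b (4565 bp with no gap, 5085 bp in pool D), Ppp3ca (8445 bp with no gap) and Camkk2 (4900 bp with 3 kb). No paired analysis was possible because the technical replicates of each pool were merged into 1 alignment and the files hold no value per library. Depth is unknown, and weak peaks end the domains of Camk2a, Camk2b and Ppp3ca in the replicated list, while that of Ppp3r1 is 1 strong peak.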

Other observations

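Weak peaks inside the genes, outside their promoter domains, were found in 6 of the 9 genes in the replicated list. The share of all marked genes with such peaks was not computed, so the count describes these genes only. In the replicated list Camk2a had 6 such peaks with 5803 bp in all, Ppp3ca 3 with 1969 bp, Camk2d 2 with 1403 bp and Camk2b 2 with 1254 bp. Camkk2 and Camk2g had 1 each, of 580 and 421 bp, and Camk4, Ppp3cb and Ppp3r1 had none. By number there were 5 in Camk2a, 7 in Camk2b and 7 in Ppp3ca in pool C, and 4, 2 and 4 in pool D. In Camk2a they came to 8033 bp in pool C and 1371 bp in pool D, and in Ppp3ca to 4016 bp in pool C and 2006 bp in pool D. These values leave out each list's own promoter domain, so the pools are not compared over the same stretch. In pool D they include Ppp3ca peaks from 10929 to 11540 and 11654 to 12340 bp, and a Camk2b peak from 6399 to 6800 bp. In pool C those stretches belonged to the promoter domain. The peaks inside the genes had a signal of at most 5.85 in the replicated list. Camk4 is among the longest of the 9 genes (256298 bp) and held none, while Camk2a is 62535 bp long.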
